A study of Rattus norvegicus with 9 samples.

Results

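The 2752 unannotated small RNA sequences of 15 to 19 nts in rat left ventricle are described here, out of 13317 unannotated sequences of 15 to 55 nts. They were chosen by length alone from the counts of reads that the alignment to known miRNA entries had left without a name, and every listed sequence had at least 10 reads over the 9 libraries. The hearts of 3 male Sprague-Dawley rats aged 8 months, numbered 6, 7 and 8 and given no treatment in the labels, supplied the tissue. The left ventricular free wall of each heart was cut into epicardium, mid-myocardium and endocardium, and each piece gave 1 TruSeq small RNA library, so that each layer had 3 libraries from the same 3 animals. The layers are slices of wall and hold several cell types. In the annotated reads, miR-133a, a miRNA of cardiac and skeletal muscle, ranged from 47649 to 132345 RPM (here reads per 1000000 annotated reads), and none of 14 miRNAs taken as markers of cardiomyocytes, endothelium, smooth muscle, fibroblasts, red cells or leukocytes was at 0 in a library.

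Ribosomes are built on a few long-lived RNAs, of which the 28S, 18S and 5.8S rRNAs are cut from 1 precursor and the 5S rRNA is made separately. Transfer RNAs receive the letters CCA at their 3′ end after transcription. Both classes are far more abundant in a cell than any miRNA, and pieces of them are regularly recovered in small RNA libraries. A sequence of this length is shorter than a typical miRNA and often too short to have a single origin in a genome, so the origins named below are readings from general knowledge of these RNAs. No rRNA or tRNA reference was matched, and no genome position was analysed here.

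The 15 to 19 nt sequences held 1952157 of 5794217 unannotated reads (33.7%). Unannotated reads per library ranged from 153988 in the mid-myocardium of heart 6 to 1379536 in the endocardium of heart 7, and levels are given as reads per 1000000 unannotated reads of the library (RPM). A count of 3 reads, used as a detection floor, stood for 2.17 RPM in the deepest library and 19.5 RPM in the shallowest. The epicardium of heart 8 and the endocardium of heart 7 stood apart from the other 7 libraries, in the 28S rRNA 17-mer and in some marker miRNAs given beside it. Between 2183 and 2702 of the 2752 sequences were detected in a library, and 1850 were detected in all 9. Of all reads of 15 to 19 nts in a library, annotated ones included, between 89.2% and 92.7% were unannotated. None of the 2752 had an exact copy in the 419 rat miRNA hairpins of RefSeq.

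The most abundant sequence was a 15-mer that reads as the 3′ end of 5.8S rRNA, and it headed a series that keeps this 3′ end and gains 1 nt at a time at the 5′ end. The series is shown from 15 to 22 nts because its levels alternated with length, and capitals mark the nts added before the 15-mer.
end series, 15 nts: tgtctgagcgtcgct
end series, 16 nts: Ctgtctgagcgtcgct
end series, 17 nts: CCtgtctgagcgtcgct
end series, 18 nts: GCCtgtctgagcgtcgct
end series, 19 nts: CGCCtgtctgagcgtcgct
end series, 20 nts: ACGCCtgtctgagcgtcgct
end series, 21 nts: TACGCCtgtctgagcgtcgct
end series, 22 nts: CTACGCCtgtctgagcgtcgct

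The second most abundant sequence was a 17-mer that reads as the 5′ start of 28S rRNA. It is shown with its shorter and longer forms because only some of them differed widely between libraries, and capitals mark the nts after the first 15.
start series, 15 nts: cgcgacctcagatca
start series, 16 nts: cgcgacctcagatcaG
start series, 17 nts: cgcgacctcagatcaGA
start series, 18 nts: cgcgacctcagatcaGAC
start series, 19 nts: cgcgacctcagatcaGACG

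Most of the other abundant sequences also fell into overlapping sets. The leading sequences of the next largest sets are shown, with the 3 most abundant sequences ending in CCA, whose last 3 nts are in capitals, and the 3 most abundant that lay inside a sequence the authors had annotated. The leads of sets 3, 4 and 6 and of the 5S set were chosen after their values were seen.
lead of set 3: ctccggcctcgtcct
lead of set 4: aatttcggttgggaaa
lead of set 5: ccgcctcgtcgcccccccg
lead of set 6, 28S rRNA 3′ end: ctcgacacaagggtttgt
5S rRNA 3′ end: accgggtgctgtaggcttt
CCA end 1, tRNA-Pro: atcccggacgagcccCCA
CCA end 2, origin not named: tgaacactttgaCCA
CCA end 3, tRNA-Ala: tccccggcacctccaCCA
annotated host 1: cctccgcgtcggcgg
annotated host 2: ctccgcgtcggcggttccc
annotated host 3: aaatttcggttggga

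Nearly all of the reads lay in sequences that were pieces of a longer unannotated sequence. Of the 2752 sequences, 2444 lay inside a longer listed sequence, and these held 98.7% of the 15 to 19 nt reads. A total of 1674 sequences began a longer one and held 90.5% of the reads, while 2024 ended a longer one and held 93.6%. The remaining 308 lay inside no longer listed sequence. When sequences of any length that shared a run of 15 nts were joined into sets, the 2752 fell into 493 sets, of which 238 held a single 15 to 19 nt sequence. Such a run can also be shared by unrelated RNAs, and a set is therefore not shown to be 1 transcript.

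A few sets held most of the material. The set of the 5.8S rRNA end held 88 of the 2752 sequences and 43.4% of their summed mean RPM, and the set of the 28S rRNA start held 35 sequences and 12.6%. Set 3 held 218 sequences and 6.61%, set 4 held 91 and 5.59%, set 5 held 53 and 4.37%, and the set of the 28S rRNA 3′ end held 29 and 3.04%. These 6 sets together made up 75.7%. The reads were therefore concentrated in few sequences: 6 sequences held at least 50.0% of all 15 to 19 nt reads and the 10 most abundant held 54.7%, against 30.6% for the 10 most abundant of the 2950 unannotated sequences of 20 to 24 nts. The median sequence had 74.0 reads over all 9 libraries. The set ranked 19th by level, with 22 sequences, was led by a 16-mer that reads as part of the kit's 5′ adapter, and it ranged from 30.5 to 5048 RPM.

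The number of different sequences was nearly even over the 5 lengths, from 535 at 16 nts to 565 at 17 nts, but their levels were not. Summed over sequences, the mean level over the 9 libraries was 111517 RPM at 15 nts, 45465 at 16 nts, 104326 at 17 nts, 40380 at 18 nts and 55297 at 19 nts. This unevenness came from the 2 leading sets. Without them the sums ran only from 30085 RPM at 17 nts to 32324 RPM at 16 nts. The sequences began with C more often than with any other nt (939 of 2752, 51.8% of reads), and 963 had a G or C content of at least 70%, with 20.3% of reads.

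**Figure D1:**
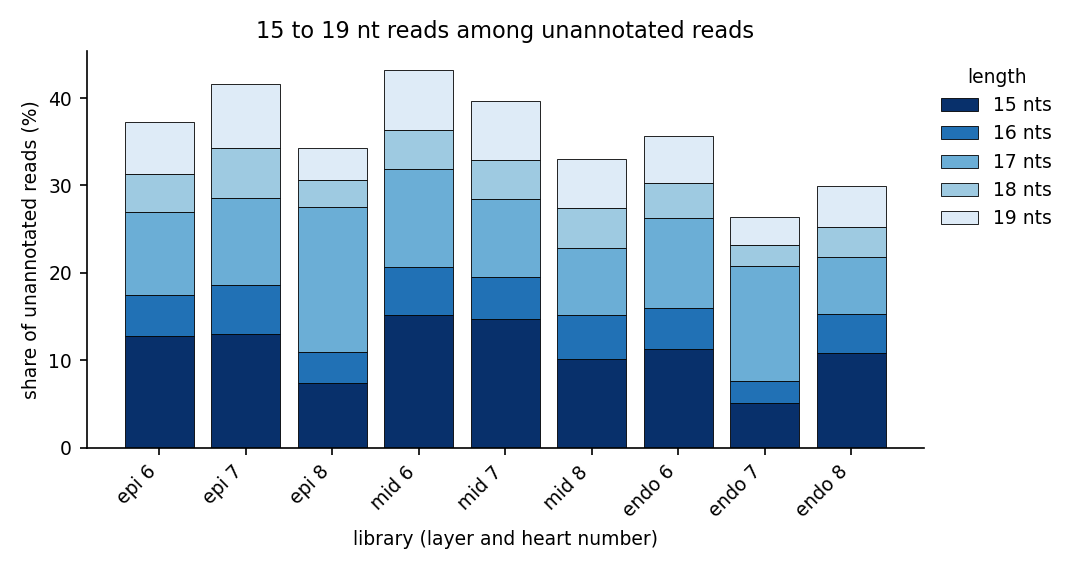
Share of each library's unannotated reads that were 15 to 19 nts long, in percent, stacked by length, for the 9 libraries named by layer (epi, mid, endo) and heart number. The 15 nt and 17 nt layers of the stacks are the thickest in most libraries, and the 17 nt layer is widest in epi 8 (16.7%) and endo 7.

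Levels in the series that ends with 5.8S rRNA alternated with length in all 9 libraries. The 15-mer had a mean of 77972 RPM, with 96177, 84323 and 42491 RPM in the epicardium of hearts 6, 7 and 8, 114736, 111934 and 59247 RPM in the mid-myocardium, and 87086, 30897 and 74854 RPM in the endocardium. It was lowest in the endocardium of heart 7 and the epicardium of heart 8, and the 3 layers overlapped. The means of the next forms were 8614 RPM at 16 nts, 32964 at 17 nts, 3319 at 18 nts, 18313 at 19 nts, 2067 at 20 nts, 4113 at 21 nts and 2187 at 22 nts. The 15-mer was therefore above the 16-mer, and each odd length from 17 to 21 nts was above both of its even neighbours.

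The alternation held in every library. The 17-mer was between 2.86 and 4.85 times the 16-mer and between 7.34 and 13.3 times the 18-mer, and the 19-mer was between 4.30 and 7.39 times the 18-mer. Each of these ratios was above 1 in 9 of 9 libraries. At 21 nts the excess over 20 nts was smaller, between 1.73 and 2.46 times, and beyond 22 nts the series dropped to 45.8 RPM at 23 nts before it rose to 1540 RPM at 26 nts. In all, 50 unannotated sequences of up to 54 nts ended with the 15-mer, and 83.7% of their level lay at 15 to 19 nts.

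**Figure D2:**
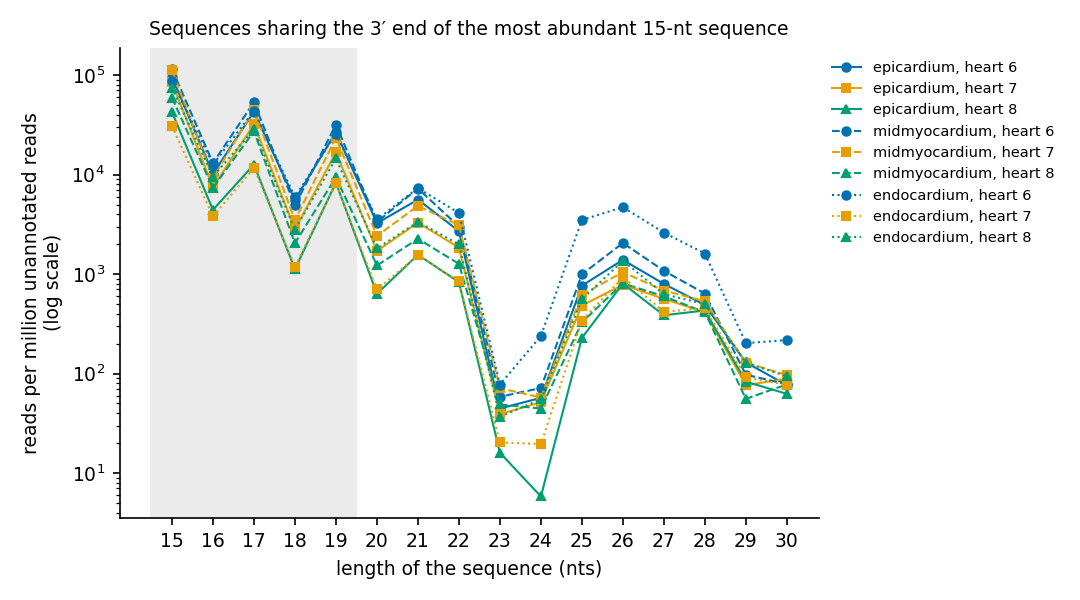
Level of the single series that ends with the 5.8S rRNA 15-mer, from 15 to 30 nts, in reads per 1000000 unannotated reads on a log axis, with 1 line per library (colour and marker for the heart, line style for the layer). The shaded lengths are 15 to 19 nts, where all 9 lines fall and rise together, and each line falls steeply after 22 nts.

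Mature 5.8S rRNA is known to end with 1 or more T in DNA letters, and both ends were seen. The 12 sequences of 15 to 19 nts that ended with the 15-mer's single final T summed to a mean of 141293 RPM, and the 4 with a second T summed to 4678 RPM. The most abundant of the latter, a 16-mer, had a mean of 3183 RPM and ranged from 892 to 4676 RPM. Endings with a longer run of T were not listed.

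The 28S rRNA start series was different, in that the 17-mer varied far more between libraries than its longer forms. The 17-mer had 17040, 22040 and 128433 RPM in the epicardium of hearts 6, 7 and 8, 18586, 8056 and 12067 RPM in the mid-myocardium, and 27479, 99489 and 5986 RPM in the endocardium. The epicardium of heart 8 and the endocardium of heart 7 stood far above the other 7 libraries, of which the highest was at 27479 RPM. In these 2 libraries the 17-mer made up 37.4% and 37.8% of all 15 to 19 nt reads, against 2.0% to 7.70% elsewhere.

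The 18-mer and 19-mer did not follow it. The 18-mer ranged from 1151 RPM to 2727 RPM and the 19-mer from 1577 to 5001 RPM, and in the epicardium of heart 8 the 19-mer was at its lowest. The ratio of the 17-mer to the 18-mer was 59.9 and 40.3 in the 2 libraries, and between 4.46 and 16.2 in the others. The 15-mer, far less abundant, was also highest in the same 2 libraries, at 1145 and 591 RPM against 148 to 357 RPM elsewhere. The 2 libraries come from different hearts and different layers, so neither heart number nor layer separates them from the rest. They also stood apart in some marker miRNAs of the annotated reads. In these 2 libraries miR-133a was at 47649 and 55280 RPM of annotated reads, against 86414 to 132345 elsewhere. The smooth muscle miRNA miR-143 was at 153285 and 141956 against 90109 to 123371. The fibroblast miRNA miR-199a was at 1417 and 1340 against 2103 to 2707, and the leukocyte miRNA miR-223 at 19.3 and 20.3 against 42.6 to 63.4. None of the other markers set both libraries on 1 side of the other 7. Among these were the cardiomyocyte miRNAs miR-1, miR-208 and miR-499 and the smooth muscle miRNA miR-145. Whether these markers and the 17-mer are related was not tested. The 15-mer of 5.8S rRNA was at its lowest levels in the same 2 libraries.

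**Figure D3:**
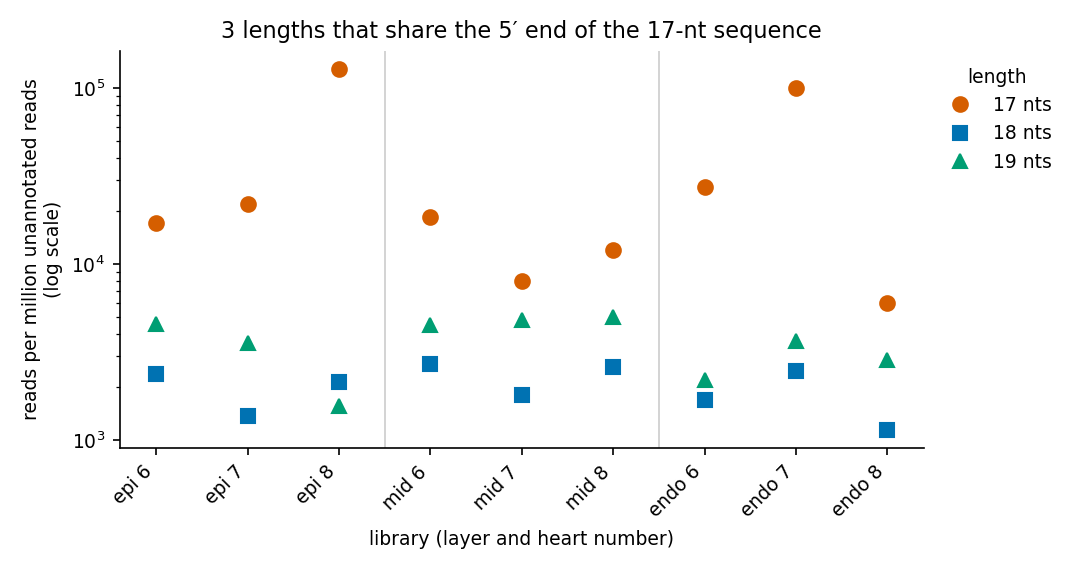
Levels of the 17, 18 and 19 nt sequences that share the 28S rRNA start, in reads per 1000000 unannotated reads on a log axis, in the 9 libraries named by layer and heart number; each point is 1 library. The 17 nt points of epi 8 (128433) and endo 7 (99489) stand apart, while the 18 and 19 nt points stay between 1151 and 5001 in all libraries.

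Among the 2752 were 122 sequences that differed by 1 substitution from a listed sequence of the same length with at least 100 times as many reads. The 28S rRNA 17-mer had 38 such copies and the 5.8S rRNA 15-mer had 26, and all 122 together held 0.855% of the 15 to 19 nt reads. The copies of the 17-mer summed to between 0.978% and 1.42% of its reads in every library, although the 17-mer itself ranged 21.5-fold. The most frequent kinds of change were C to T in 25 copies and T to C in 19.

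A total of 203 sequences ended in CCA, and these held 3.07% of the 15 to 19 nt reads, between 2.17% and 4.09% in a library. The 18-mer of the tRNA-Pro end was the most abundant, with 1843, 2478 and 1807 RPM in the epicardium, 1662, 1856 and 1430 RPM in the mid-myocardium and 1217, 1142 and 1618 RPM in the endocardium of hearts 6, 7 and 8. The highest level was 2.17 times the lowest, and the 2 lowest were endocardial. The tRNA-Ala end ranged from 330 to 907 RPM. The CCA end of unnamed origin, a 15-mer whose origin is not named, had 1298, 1916 and 1614 RPM in the epicardium, mid-myocardium and endocardium of heart 6 and between 101 and 525 RPM in the other 6 libraries, with no overlap between heart 6 and the others.

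Few sequences touched the annotated material. A total of 100 lay inside a sequence that the authors had annotated, and they held 3.59% of the reads. The entries that held most of them were not rat miRNAs: 18 lay inside sequences assigned to mir-125 of Capitella teleta, a worm, and 17 inside sequences assigned to mir-5115 of mouse. Of the rat entries, miR-143 held 2. Of the 3 most abundant, the 15-mer had between 221 and 3461 RPM, the 19-mer between 94.6 and 2602 RPM and the other 15-mer between 357 and 1520 RPM.

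The first comparison was of the layers, which the study set side by side to describe gradients across the wall. In bulk tissue, fewer cells of a type and less RNA per cell cannot be told apart. The 15 to 19 nt share of unannotated reads was 37.3%, 41.7% and 34.3% in the epicardium of hearts 6, 7 and 8, 43.2%, 39.7% and 33.1% in the mid-myocardium, and 35.7%, 26.3% and 30.0% in the endocardium. The endocardial share was the lower in 3 of 3 hearts against the epicardium, but the ranges overlapped. With annotated reads in the denominator they did not, as given in the last section. The mean was 30.7% ± 4.72 in endocardium and 37.8% ± 3.69 in epicardium (SD, n = 3 each), and the difference did not pass an exact two-sided permutation test (p = 0.2, adjusted p = 0.7 over 7 such tests, smallest possible p = 0.1). Mid-myocardium, at 38.7% ± 5.17, did not differ detectably from epicardium (p = 0.8, exact permutation test) or from endocardium (p = 0.2, exact permutation test, adjusted p = 0.7).

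The make-up of these reads was tested between endocardium and epicardium only. The share ending in CCA was 3.12% ± 0.839 in endocardium and 3.33% ± 0.688 in epicardium, the share that began a longer sequence 89.8% ± 1.78 and 90.9% ± 1.76, the share that ended a longer one 93.9% ± 1.28 and 93.4% ± 0.213, and the share inside an annotated sequence 2.58% ± 1.12 and 3.5% ± 1.31. None of the 4 passed the exact permutation test (p = 0.8, 0.5, 0.6 and 0.4, adjusted p = 0.8 each). The third difference was larger than the SD of epicardium but smaller than that of endocardium, and the other differences were smaller than the SD of either layer.

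No single sequence passed the test between layers. The edgeR quasi-likelihood test was run on the 5748 unannotated sequences with enough reads, of which 1397 were of 15 to 19 nts, and Benjamini-Hochberg adjustment was made over all 5748. Endocardium against epicardium gave 0 calls at an adjusted p below 0.05 (0% of all tested), mid-myocardium against epicardium gave 0 (0%) and mid-myocardium against endocardium gave 0 (0%). DESeq2 also gave 0 in each. At an unadjusted p below 0.05 there were 68 of the 1397 in endocardium against epicardium (4.09% of all tested), 13 in mid-myocardium against epicardium (0.748% of all tested) and 117 in mid-myocardium against endocardium (6.26% of all tested). The shares of the 15 to 19 nt sequences were 4.87%, 0.931% and 8.38%. With the heart number as a block the calls were again 0 in each, and the unadjusted counts were 199, 30 and 237 of the 1397, or 14.2%, 2.15% and 17% (9.17%, 2.33% and 12% of all tested). The 15 to 19 nt shares were thus above those of all tested in both comparisons with endocardium, and no test was made of these shares.

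The fold changes leaned one way by length. Against epicardium, the median log2 fold change of endocardium was -0.51 for the 15 to 19 nt sequences and -0.12 for all 5748. The medians of the longer classes were -0.28 at 20 to 24 nts, -0.02 at 25 to 34 nts and 0.42 at 35 to 55 nts. With TMM factors the median of all sequences moved to 0.00 and that of the 15 to 19 nt sequences to -0.39. Such a factor shifts all sequences of a library alike, so it cannot test the gap between length classes. Without the epicardium of heart 8 and the endocardium of heart 7, where the 17-mer was far higher, the medians were -0.56 for 15 to 19 nts and -0.17 for all. Mid-myocardium against endocardium gave 0.59 for the 15 to 19 nt sequences and 0.28 for all, and 0.35 and 0.01 with TMM factors. Mid-myocardium against epicardium gave 0.13 and 0.15, and with TMM factors the sign for 15 to 19 nts turned, at -0.01 and 0.01. These comparisons share libraries, and the sequences of a set overlap each other, so the medians are a description of the libraries and no test was made of them. The GC-rich sequences of 15 to 19 nts had a median of -0.83 in endocardium against epicardium, and of -0.72 with TMM factors. Medians of GC-rich sequences of other lengths are not given here.

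The 3 sequences with the smallest p in each layer comparison are given although none passed, and all had few reads.
endocardium and epicardium, 1: ctggaaaaaaagaaccct
endocardium and epicardium, 2: gattgaactcctgtt
endocardium and epicardium, 3: cagtagacaaagcaaccc
mid-myocardium and epicardium, 1: cgcgacctcagaccaga
mid-myocardium and epicardium, 2: cgcgacctcagctcaga
mid-myocardium and epicardium, 3: accgcgacctcagatcaga
mid-myocardium and endocardium, 1: cgcgtcggcggttcc

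The first of these, an 18-mer, had 23, 12 and 22 reads in the epicardium, 1, 3 and 14 in the mid-myocardium and 3, 3 and 1 in the endocardium of hearts 6, 7 and 8. The epicardial levels of 21.3 to 32.0 RPM lay above the endocardial ones of 2.04 to 6.45 RPM, with a log2 fold change of -3.05 ± 0.78 (SE) and an edgeR adjusted p of 0.948. The other 2 of this comparison lay on the same side, at log2 fold changes of -2.28 ± 0.65 and -2.16 ± 0.64 (SE) with the same adjusted p, and they followed the first in mid-myocardium against endocardium too, at 2.21 ± 0.66 and 2.17 ± 0.65 (SE, edgeR adjusted p = 0.698). The first of that comparison, a 15-mer, had 26.0, 68.9 and 109 RPM in the mid-myocardium and 6.45, 17.4 and 6.12 RPM in the endocardium, with a log2 fold change of 2.70 ± 0.73 (SE, edgeR adjusted p = 0.698). The groups did not overlap for these 4 sequences, but they were picked for their small p, so this is no further support. How many of all tested sequences separated in this way was not counted. The reads behind the 4 were few and none passed after adjustment.

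The 3 sequences of mid-myocardium against epicardium were relatives of the 28S rRNA 17-mer. Both 17-mers differ from it by 1 nt and the 19-mer ends with it, and all 3 were highest in the epicardium of heart 8, at 69.8, 58.1 and 78.5 RPM, the library where the parent stood at 128433 RPM. Their edgeR adjusted p was 1.00. All 3 thus peaked in the same library as the parent, and any part of the parent's level in these differences was not tested.

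The second comparison was between the 3 hearts, which the design allows because each heart gave 1 library per layer. Here many sequences differed. In the edgeR quasi-likelihood test of the heart terms with layer as a covariate, 373 of the 5748 sequences passed (6.49%), and of the 1397 of 15 to 19 nts 105 did (7.52%). The share was 7.50% at 20 to 24 nts (99 of 1320), 6.55% at 25 to 34 nts (133 of 2029) and 3.59% at 35 to 55 nts (36 of 1002). No test was made of these shares. The differences are between 3 animals and their dissections and libraries, which cannot be told apart.

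The calls rest heavily on heart 6. Of the 105 sequences, 78 had their lowest mean in heart 6, and 66 of these 78 had a G or C content of at least 70%. Another 21 had their highest mean in heart 6, and 1 of them was that rich in G or C. Among all 1397 tested, 515 were that rich in G or C. How many of all tested sequences had their lowest mean in heart 6 was not counted. Without the epicardium of heart 6 only 3 of the 15 to 19 nt sequences were called, without its endocardium 5 and without its mid-myocardium 13, without the mid-myocardium of heart 8 there were 53, and leaving out any other library of hearts 7 and 8 left between 82 and 151. Without the layer term 38 were called. Over all lengths the calls fell from 373 to 7, 22 and 48 without the epicardium, endocardium and mid-myocardium of heart 6. The dependence on heart 6 was thus not particular to 15 to 19 nts.

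GC-rich sequences as a group separated heart 6 from the others. Sequences with at least 70% G or C made up 12%, 9.98% and 5.39% of the 15 to 19 nt reads in the epicardium, mid-myocardium and endocardium of heart 6. The values were 31.8%, 21% and 17.5% in heart 7 and 18.8%, 34% and 19.2% in heart 8. The 3 libraries of heart 6 thus lay below the other 6 without overlap, and the 2 other hearts overlapped. Of the 515 GC-rich sequences tested 70 were called between hearts (13.6%), and of the 145 tested that ended in CCA 5 were (3.45%). Of the 59 tested that lay inside an annotated sequence 12 were called (20.3%), and of all 1397 tested 105 were (7.52%).

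**Figure D4:**
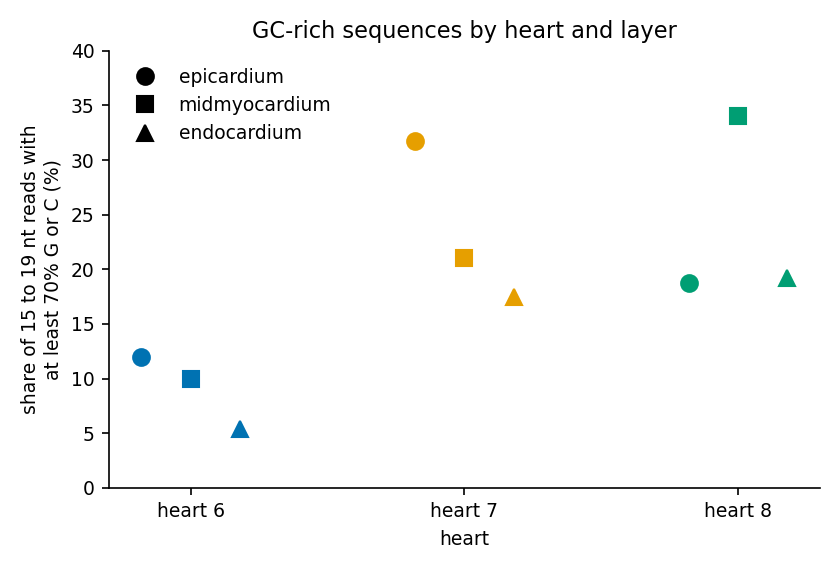
Share of the 15 to 19 nt reads in sequences with at least 70% G or C, in percent, by heart, with 1 point per library (marker shape for the layer, colour for the heart). The 3 points of heart 6 lie between 5.39% and 12%, below the 6 points of hearts 7 and 8, which lie between 17.5% and 34%.

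The same 105 calls were also counted by set, where sequences overlap each other. Of all 1397 sequences of 15 to 19 nts tested, 7.52% were called. Set 3 gave 32 calls among 136 tested, of which 24 were highest in heart 8 and 8 in heart 7. Set 5, whose lead is 89.5% G or C, gave 13 among 36 tested, of which 12 were highest in heart 7. The lead of set 5 had 2891, 2598 and 941 RPM in the 3 libraries of heart 6, 18485, 10857 and 3826 RPM in heart 7 and 4324, 7431 and 4923 RPM in heart 8. Set 4, whose lead has 37.5% G or C, gave 9 calls among 76 tested, and all 9 were highest in heart 6. The CCA-ended 15-mer that was highest in heart 6 also passed, at an edgeR adjusted p of 0.0180, but not without the endocardium of heart 6 (adjusted p = 0.315).

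The 5 sequences with the smallest p between hearts included 3 that were present in some hearts and nearly absent from another. Each of these 3 differs by 1 nt from a listed sequence, its counterpart, which was found in all 9 libraries. They are shown as pairs, with the differing nt in capitals and positions counted from 1 at the 5′ end, and the counterparts were chosen after the values were seen.
pair 1, variant: cccgccgggtgTgcc
pair 1, counterpart: cccgccgggtgCgcc
pair 2, variant: cggcgtTggcttcggc
pair 2, counterpart: cggcgtCggcttcggc
pair 3, variant: gaTacaagggtttgt
pair 3, counterpart: gaCacaagggtttgt
sequence 4: agagagagttcaagagggc
sequence 5: gccggcgcggggttttcc

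The variants of pairs 1 and 2 were sequences of heart 8. The pair 1 variant (C12T) had 137, 155 and 32 reads in the epicardium, mid-myocardium and endocardium of heart 8, 1 read in the epicardium of heart 6 and 0 in the other 5 libraries. The pair 2 variant (C7T) had 124, 56 and 89 reads in heart 8 and 0 in the 6 libraries of hearts 6 and 7. Their edgeR adjusted p was 2.46e-08 each, and neither counterpart passed (adjusted p = 0.106 and 0.172). Both variants met the low-count filter only through the libraries of heart 8, so these p values are not independent of that selection. The pair 1 variant passed under all 14 alternatives, and the pair 2 variant under 13 of 14, the exception being DESeq2 (adjusted p = 0.211).

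Set against their counterparts, both variants took a share of more than 10% in every layer of heart 8. In heart 8 the pair 1 variant was 22.8%, 12.5% and 14.9% of the reads of the pair in epicardium, mid-myocardium and endocardium, and 15.8% over the heart (95% Wilson interval 14.3% to 17.4%). The intervals of its epicardium (19.7% to 26.4%) and mid-myocardium (10.8% to 14.5%) did not overlap. In heart 7 it was 0 of 1655 reads, which allows a share of up to 0.181%. The pair 2 variant was 79.5%, 63.6% and 81.7% of its pair in the layers of heart 8 and 76.2% over the heart (95% Wilson interval 71.5% to 80.3%). In hearts 6 and 7 it was 0 of 73 reads, which allows up to 4.11%. These intervals and limits cover counting error only, since the reads carried no molecular identifiers.

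The variant of pair 3 (C3T) was missing from heart 8. Its counterpart belongs to the 28S rRNA 3′ end. The variant had 17, 4 and 21 reads in the epicardium, mid-myocardium and endocardium of heart 6, 17, 30 and 44 in heart 7 and 0 in all 3 libraries of heart 8 (edgeR adjusted p = 0.000279). It was 2.58% of the reads of the pair in heart 6 (95% Wilson interval 1.92% to 3.47%) and 9.84% in heart 7 (8.08% to 11.9%). In heart 8 it was 0 of 747, which allows up to 0.402%.

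**Figure D5:**
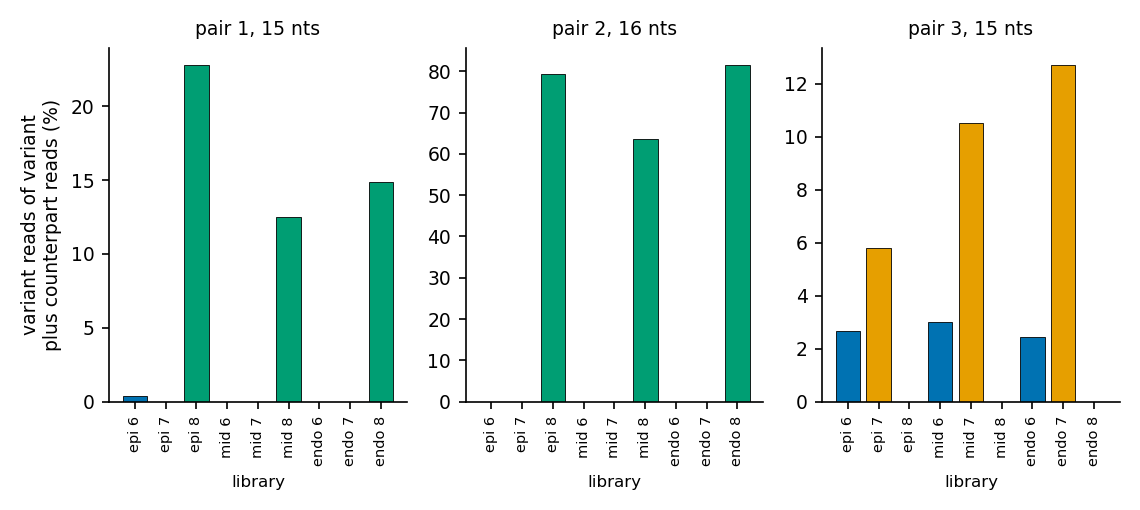
Reads of the variant as a percent of variant plus counterpart reads, for pairs 1, 2 and 3, in the 9 libraries named by layer and heart number; each bar is 1 library and the colours are the hearts, and the 3 vertical axes differ. The bars of pairs 1 and 2 stand in heart 8, apart from 1 bar of 0.356% for pair 1 in epi 6, and the bars of pair 3 stand in hearts 6 and 7.

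The substitutions recurred in overlapping sequences of other lengths. The run of the pair 3 variant was held by 6 listed sequences of up to 33 nts, which had 149, 215 and 6 reads in hearts 6, 7 and 8, while the run of its counterpart was held by 48 sequences with 37312, 26539 and 21911 reads. A pair of longer forms carrying it, of 18 and 19 nts and named after their values were seen, also passed (edgeR adjusted p = 0.00976 and 0.0179). The run of the pair 1 variant was held by 5 sequences with 1, 2 and 458 reads in hearts 6, 7 and 8, against 1491, 7850 and 7932 reads for the 73 sequences with its counterpart. The pair 2 variant was listed at 1 length only, and forms below the minimum read count are not listed. Overlapping sequences of 1 library share their source, and their number is no further replication.

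Sequence 4 was highest in heart 8 in every layer, with 3, 0 and 3 reads in the epicardium, mid-myocardium and endocardium of heart 6, 8, 6 and 16 in heart 7 and 47, 53 and 31 in heart 8 (edgeR adjusted p = 0.00190). Sequence 5 was low in heart 6, with 19, 4 and 4 reads in the same layers, against 263, 80 and 248 in heart 7 and 312, 75 and 129 in heart 8 (edgeR adjusted p = 0.00190). Without the epicardium of heart 6 their adjusted p was 0.0980 and 0.187. Sequence 4 also met the low-count filter only through the libraries of heart 8.

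Copies of the 5.8S rRNA 15-mer with another last nt, chosen after their values were seen, stood by heart as well. The copy ending in G (T15G) had 0.400% to 0.579% of the 15-mer's reads in heart 6, 0.315% to 0.651% in heart 8 and 1.20%, 1.59% and 2.12% in the epicardium, mid-myocardium and endocardium of heart 7. All 3 values of heart 7 lay above the other 6, but on its own level the copy did not pass the test between hearts (edgeR adjusted p = 0.0760). The copy ending in A (T15A) was also highest in heart 7, at 0.366% to 0.702% against 0.183% to 0.364%, and did not pass (adjusted p = 0.454). The lead of set 3, an unrelated sequence, showed the same order for its own copy ending in G. That copy was 0.314% to 1.29% of the pair in heart 6, 2.18%, 2.42% and 3.85% in heart 7 and 0.706% to 1.17% in heart 8, and it passed the test between hearts (edgeR adjusted p = 0.00859). Not every copy stood highest in heart 7. The copy of the 5.8S rRNA 15-mer with another second nt (G2T) also passed (edgeR adjusted p = 0.0307), with 92, 10 and 164 reads in the 3 libraries of heart 6, 7, 37 and 24 in heart 7 and 15, 10 and 34 in heart 8.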

How the data were processed

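Small RNA libraries (TruSeq) were read from 9 tissue pieces, 3 layers of 3 hearts. The authors trimmed the reads and matched them to miRBase entries in the CLC Genomics Workbench, with up to 2 mismatches and up to 3 nts added or removed; the rest were deposited as raw counts per sequence and library, kept where the 9 libraries together held 10 reads or more. The annotated reads were deposited as RPM, from which whole reads were recovered (100% of values whole within 0.02 reads). The table that groups annotated reads was not used, and 0 columns of values were left without a sample.

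The sequences and lists were chosen with earlier results of these data known. Levels were scaled to the library's unannotated total. Layers were compared in edgeR 4.0.16 (R 4.3.3) by the quasi-likelihood test over all 9 libraries, without TMM factors, after filterByExpr (5748 of 13317 sequences), and hearts by an F test of the heart terms beside layer, with Benjamini-Hochberg adjustment over all tested and a threshold of 0.05. The layers of 1 heart come from 1 animal, so heart numbers pair the libraries: deviations from the layer means correlated by 0.347 on average within a heart (0.0132 to 0.597, 9 pairs). The deviations of a layer sum to 0 over its 3 hearts. The mean between hearts, -0.166 (18 pairs), is therefore tied to the value within hearts and adds nothing to it. The unblocked fit is the main one, as the study's methods state no block. Shares of reads were compared by exact two-sided permutation tests (scipy 1.17.1). DESeq2 1.42.0, other scalings, the heart block, no low-count filter and leaving out each library were alternatives. The fits were also run on counts simulated with the dispersions of these data. In endocardium against epicardium 21 of 100 sequences changed 4-fold were called, and 83 of 100 changed 16-fold. Between hearts these were 51 and 94 of 100. The layer test thus missed most 4-fold changes, and its 0 calls do not show that the layers are alike. Named were the 10 most abundant sequences, the leads of the largest families by first 15 nts, the 3 most abundant of the CCA and annotated lists, the 3 smallest p per layer comparison and the 5 smallest between hearts; others are said to be chosen after their values were seen. Each library is 1 tissue piece. The main layer fit treats the 9 libraries as independent, although they come from 3 animals. The heart test has both layer and heart terms, as has the layer fit with the heart block but not the main layer fit.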

Additional observations from a re-analysis of the deposited data

How the results depend on the processing

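Counts of layer calls stayed at 0 to 0 in every alternative run, with 1 library left out, with TMM or DESeq2 factors, with DESeq2, with no low-count filter, with the heart number as a replicate block, and without the epicardium of heart 8 and the endocardium of heart 7 (added after seeing the data). The replicate block, which pairs the layers of each animal, changed no other call, and the paired permutation p for the 15 to 19 nt share of endocardium against epicardium was 0.25, the smallest it can give. Between hearts, calls over all sequences numbered 564 with no filter, 140 with no layer term and 575 with DESeq2, against 373, and 7 to 505 with 1 library left out; those of 15 to 19 nts numbered 163, 38 and 169, against 105, and 3 to 151. The cause was not tested. The share difference of mid-myocardium minus epicardium, 0.913 percentage points, turned to -1.12 with annotated reads in the denominator and to -1.39 over 16 to 19 nts. With that denominator the endocardial share (11.8% to 14.1%) lay below the epicardial (14.6% to 17.6%) and mid-myocardial (14.5% to 15.2%). Each gave an exact permutation p of 0.1, the smallest possible, unadjusted. So did endocardium against epicardium over 16 to 19 nts, and mid-myocardium against endocardium without the 10 most abundant sequences. Other alternatives of these 2 comparisons gave p of 0.2 or more. Counted over different sequences in place of reads, the endocardium minus epicardium differences turned to 0.274 (CCA), 0.101 (beginning a longer sequence) and 0.00154 (inside an annotated one). With 1 library left out, the share differences ran from -9.59 to -4.91 (endocardium minus epicardium), -1.38 to 3.72 (mid-myocardium minus epicardium) and 5.70 to 10.8 (mid-myocardium minus endocardium), and the others from -0.535 to 0.262 (CCA), -2.14 to -0.121 (beginning), 0.0164 to 1.24 (ending) and -1.65 to -0.330 (annotated). Without the 28S rRNA 17-mer, an alternative added after seeing the data, the endocardial share was 27.2% ± 8.10 and the epicardial 33.7% ± 8.14 (n = 3, exact permutation p = 0.4). The pair 2 variant was not called by DESeq2 (adjusted p = 0.211). With 3 hearts a layer, no share test could reach p below 0.1, and a sequence with fewer than 3 reads in the shallowest library is below 19.5 RPM.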
